A study of Rattus norvegicus with 6 samples.

Results

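Long unmethylated valleys of the rat hippocampus are stretches of several kilobases in which few of the reads at CpGs are methylated. They were found by dividing chromosomes 1 to 20 into tiles of 1 kb, pooling the methylated reads of all 6 samples in each tile, and keeping runs of at least 5 consecutive tiles that each had a pooled methylation level under 15%. Tiles with fewer than 20 reads over the 6 samples ended a run. Of 22864 runs of tiles under 15%, 420 were long enough to be valleys, and the other 22444 were short runs of 1 to 4 tiles. The valleys were thus chosen by their pooled methylation level, which is not a finding, whereas diet and gene positions had no part in the choice. Coverage entered through the minimum number of reads and as the weight of each sample, and flanks only in that the tile next to a valley was over the limit or short of reads.

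The data are whole-genome bisulfite sequencing (WGBS) of hippocampi from Sprague-Dawley rat pups at postnatal day 15. The dams of the 3 iron-deficient pups ate a diet with 4 ppm iron between gestational day 2 and postnatal day 7 and then 200 ppm, so they had returned to the control diet by the time of dissection. The dams of the 3 iron-sufficient pups ate 200 ppm iron throughout. The sources used here do not state sex or litter, whole hippocampus is a mixture of cell types, and bisulfite reads do not separate 5-methylcytosine from 5-hydroxymethylcytosine. With 3 samples per group the p-values measure the spread between these samples, and the smallest exact p for a difference between diets is 0.1.

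In vertebrate genomes most CpGs are methylated, and the CpG islands at gene promoters are the main exception. Around many regulators of development the unmethylated stretch runs far past the promoter, and such methylation valleys or canyons are known for lying over genes for transcription factors that Polycomb proteins hold silent in most cell types. The TET enzymes, which oxidize 5-methylcytosine, need iron as a cofactor.

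The promoters below are those of genes in the valleys described most closely, with 1 from a short run for contrast. Each is the 250 bases before a RefSeq gene start in build GRCr8, read 5′ to 3′ on the strand of the gene, with every CpG in capitals. Mir9-2hg (the host gene of a miR-9 microRNA, chr2:15909668-15909917 (+ strand)), Dlx1 (a homeobox factor of forebrain interneurons, chr3:76763614-76763863 (+ strand)) and Skor2 (a corepressor of cerebellar Purkinje cells, chr18:72679199-72679448 (+ strand)) start in the 3 longest valleys. Ndufb10 (a subunit of mitochondrial complex I, chr10:14255967-14256216 (- strand)) and Prdm13 (a regulator of neuron identity in the spinal cord and retina, chr5:40029659-40029908 (- strand)) start in valleys whose diets did not overlap. Sp9 (a zinc finger factor of interneurons, chr3:78554095-78554344 (+ strand)) starts in the valley with the least spread between samples. Tfrc (the transferrin receptor, through which cells take up iron, chr11:81690319-81690568 (- strand)) is shown for contrast, since it starts in a short run of 2 kb.
Mir9-2hg: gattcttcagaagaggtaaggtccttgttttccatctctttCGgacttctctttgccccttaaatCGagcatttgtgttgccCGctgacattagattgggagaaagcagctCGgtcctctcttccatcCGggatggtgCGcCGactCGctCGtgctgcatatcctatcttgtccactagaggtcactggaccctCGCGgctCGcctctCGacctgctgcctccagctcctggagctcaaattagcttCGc
Dlx1: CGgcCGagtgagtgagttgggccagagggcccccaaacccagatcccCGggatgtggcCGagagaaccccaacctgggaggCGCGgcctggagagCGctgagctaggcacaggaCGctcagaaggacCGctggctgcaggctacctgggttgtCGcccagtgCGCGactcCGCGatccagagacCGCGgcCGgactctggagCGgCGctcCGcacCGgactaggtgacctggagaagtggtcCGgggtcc
Skor2: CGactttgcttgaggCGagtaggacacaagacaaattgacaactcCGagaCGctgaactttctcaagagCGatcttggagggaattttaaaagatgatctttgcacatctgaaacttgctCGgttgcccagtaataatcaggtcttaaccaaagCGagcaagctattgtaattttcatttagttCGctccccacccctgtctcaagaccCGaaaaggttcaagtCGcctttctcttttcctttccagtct
Ndufb10: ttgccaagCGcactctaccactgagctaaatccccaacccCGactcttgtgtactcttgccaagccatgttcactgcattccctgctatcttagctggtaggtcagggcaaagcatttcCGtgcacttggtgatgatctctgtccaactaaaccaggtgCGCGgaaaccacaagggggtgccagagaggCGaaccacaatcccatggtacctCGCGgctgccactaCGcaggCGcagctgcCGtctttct
Prdm13: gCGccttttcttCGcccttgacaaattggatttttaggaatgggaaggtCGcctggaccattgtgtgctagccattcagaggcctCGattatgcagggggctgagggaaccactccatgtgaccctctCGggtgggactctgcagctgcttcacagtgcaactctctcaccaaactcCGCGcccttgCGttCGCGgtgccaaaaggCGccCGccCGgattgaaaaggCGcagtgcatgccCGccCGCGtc
Sp9: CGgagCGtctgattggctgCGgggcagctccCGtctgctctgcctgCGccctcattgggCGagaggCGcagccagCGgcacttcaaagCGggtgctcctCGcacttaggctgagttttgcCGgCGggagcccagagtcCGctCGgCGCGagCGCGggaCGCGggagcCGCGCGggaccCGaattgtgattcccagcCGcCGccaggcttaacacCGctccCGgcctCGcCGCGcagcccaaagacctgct
Tfrc: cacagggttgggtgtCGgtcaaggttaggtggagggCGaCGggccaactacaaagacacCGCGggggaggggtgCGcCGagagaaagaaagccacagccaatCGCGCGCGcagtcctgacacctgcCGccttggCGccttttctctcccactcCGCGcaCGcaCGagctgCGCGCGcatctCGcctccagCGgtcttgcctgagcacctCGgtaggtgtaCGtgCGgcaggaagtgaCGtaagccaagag
The 250 bases hold 14 CpGs for Mir9-2hg, 22 for Dlx1, 10 for Skor2, 11 for Ndufb10, 17 for Prdm13, 31 for Sp9 and 26 for Tfrc. Among the few promoters printed here, the number of CpGs does not follow the length of the run around them. Skor2 has the fewest CpGs of these and an 18 kb valley, whereas Tfrc has 26 and a run of 2 kb.

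The deposited positions are of build rn4, for which no annotation was used, and positions of GRCr8 and rn4 cannot be compared directly. The promoters were instead placed on the deposited CpGs by the spacing of their own CpGs. For this step a promoter was 300 bases, the 250 before the start and 50 after it. A promoter was placed where at least 8 of its CpGs, and at least 90% of them, lay at the same distances from each other as CpGs listed in the files, at a single position of the genome. The matched CpGs also had to make up at least 90% of those listed in that stretch. Of 15918 promoters with at least 8 CpGs, 13718 had a single position, and 99.58% of these lay on the chromosome of the same number in both builds. The remaining few were dropped. On chromosomes 1 to 20 this gave the starts of 11708 genes, which is a set of CpG-rich promoters. A valley without a placed start may therefore still hold a gene.

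The 420 valleys covered 2830 tiles with 114453 CpGs. Their length had a median of 6 kb and a maximum of 23 kb. There were 176 valleys of 5 kb, 87 of 6 kb, 53 of 7 kb and 104 of 8 kb or more, of which 42 reached 10 kb. Tiles under 15% were rare, with 36108 of 2263187 tiles (1.6%), and 7.84% of them belonged to valleys. CpG density was 40.4 CpGs per kb in valleys and 37.6 in short runs, compared with 9.41 over all tiles with enough reads. The valleys themselves ranged from 11.3 to 77.8 CpGs per kb, with quartiles of 31.8 and 50.5. Some valleys were thus hardly denser in CpGs than the genome at large.

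By construction the pooled level lay under 15%, but the valleys also differed among themselves. The pooled level ranged from 2.6% to 12.22% with a median of 5.005%, and 209 valleys were under 5%. In the 105 valleys of lowest CpG density, from 11.3 to 31.7 CpGs per kb, the median pooled level was 6.31%, compared with 4.07% in the 105 densest, from 50.6 to 77.8. The median SD over the 6 samples was 2.27 percentage points in the former and 1.24 in the latter. A placed gene start was present in 26.7% of the sparsest and in 70.5% of the densest, and placement itself needs CpGs. The valley with the lowest pooled level, named here after its values were seen, lay at chr2:186529001-186534000 and had 68 CpGs per kb.

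At the level of single CpGs, 107795 CpGs in valleys had at least 60 reads over the 6 samples. Of these, 65.4% were under 5% methylated and 24.3% lay from 5% to 15%. A methylation level of 50% or more was seen at 589 CpGs (0.546%). These were spread over 259 valleys with at most 10 in any of them, and 59.4% lay in the first or last tile of their valley, compared with 29.7% of the tiles. The other 161 valleys held none.

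The limit of 15% cut a continuous range. The valley tiles closest under it had pooled levels of 14.96% at chr5:72105001-72106000, 14.96% at chr8:65481001-65482000 in the valley with the start of Tle3, a Groucho-family corepressor, and 14.9% at chr5:64717001-64718000. Just over it, the tile next to the Hoxd13 valley at chr3:57287001-57288000 had 15.01%, a tile next to a valley at chr2:226582001-226583000 had 15.05%, and a tile at chr7:141716001-141717000 had 15.07%. At 817 valley edges the next tile was measured. Its level had a median of 31.2% over these edges, and at 186 of them it lay from 15% to 20%. In 33 places a single tile split what were otherwise adjoining valleys, and such a tile, if measured, was counted at both edges.

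Valleys were unevenly distributed. Chromosome 12 had 3.04 kb of valley per Mb of measured tiles, chromosome 20 had 2.53 and chromosome 10 had 2.46, whereas chromosome 16 had 0.29 and chromosome 5 had 0.58. Of the 420 valleys, 124 (29.5%) lay within 100 kb of another and 111 within 20 kb. Linking neighbours within 100 kb gave 14 chains of at least 3 valleys, which held 66 valleys. The Hox genes, which set position along the body axis, accounted for the chains with the most placed starts. The chain at chr4:80457001-80626000 had 8 valleys with 70 kb of valley in all and held the starts of Hoxa2, Hoxa3l1, Hoxa10, Hoxa11, Hoxa13 and the neighbouring homeobox gene Evx1. Another at chr3:57269001-57366000 had 7 valleys with 62 kb and the starts of Hoxd3, Hoxd9, Hoxd12, Hoxd13 and Evx2. The chain with most valleys, 10 with 67 kb at chr10:84930001-85076000, held no placed start of a named gene, and the nearest was that of Hoxb1 at 22.8 kb. A chain of 8 valleys with 69 kb at chr7:141688001-141794000 had its nearest placed start of a named gene at 194.4 kb, that of Cistr. For both of these chains, genes that were not placed may lie nearer or within.

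Smaller chains of 3 valleys held the starts of Sox2, a factor of neural stem cells, Isl1, a homeobox factor of motor neurons, Wnt1, a midbrain patterning signal, Tbx5, a factor of heart and forelimb, and Borcs6, a subunit of a lysosome positioning complex. Between chains the pooled level ranged from 4.85% to 7.07%. The Hoxa chain was at 5.32%, 6.19% and 4.79% in iron-sufficient replicates 1, 2 and 3 and at 5.31%, 5.91% and 6.61% in the iron-deficient replicates, and the groups overlapped. The Hoxd chain was at 5.70%, 5.36% and 5.61% in the iron-sufficient pups and at 4.62%, 6.78% and 6.32% in the iron-deficient ones, and the groups overlapped there too. Of the 14 chains, only that of 3 valleys at chr9:18051001-18082000, which held no placed start of a named gene, had separated diets. It was at 6.03%, 3.69% and 6.20% in the iron-sufficient and 7.01%, 6.92% and 8.21% in the iron-deficient replicates, a difference of 2.08 percentage points. Of all 5 kb windows of the autosomes, 6.74% had all iron-deficient samples higher and 3.68% all lower.

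Genes of development had larger shares in valleys than placed genes as a whole. Of 11708 placed genes, 258 (2.2%) started in a valley, 8990 (76.8%) in a short run and 2460 in neither. The gene lists were made by hand and hold part of each family, so that homeobox genes such as Evx1 and Hmx3 and the ligand gene Wnt11 start in valleys without being counted here. Among the 39 placed genes of the homeobox and HOX list, 24 (61.5%) started in a valley, 14 in a short run and only Lhx3 in neither. Of the 37 placed genes in the list of other developmental transcription factors 19 (51.4%) started in a valley and 14 in a short run, and of the 11 in the list of signalling ligands 4 (36.4%), namely Bmp4, Fgf9, Nog and Wnt1. These shares are a description, and 39 of the 85 annotated genes on the homeobox and HOX list could be placed.

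**Figure D1:**
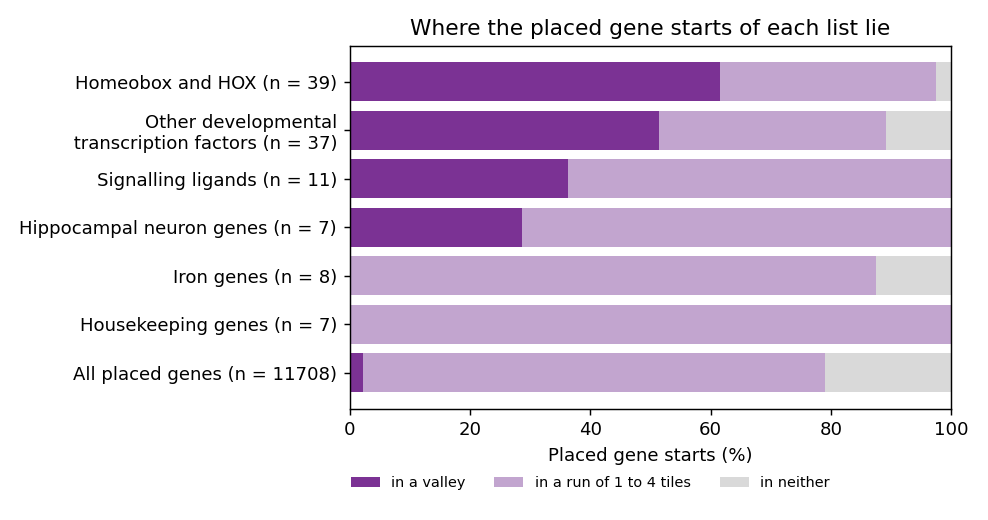
Share of placed gene starts in each list, in percent, that lie in a valley (dark), in a run of 1 to 4 tiles under 15% (light) or in neither (grey). The valley share is 61.5% for the homeobox and HOX list and 51.4% for the list of other developmental transcription factors. It is 2.2% for all placed genes, and none of the 8 placed iron genes or the 7 placed housekeeping genes starts in a valley.

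Of the 8 placed genes of the iron list none started in a valley. Only 2.2% of all placed genes did, so a list this short may well hold none. Tfrc, Slc11a2, an iron importer, and Steap2, a metalloreductase, started in short runs of 2 kb, and Aco1 and Ireb2, which encode the iron regulatory proteins, Ncoa4, the receptor for ferritin breakdown, and Slc40a1, the iron exporter ferroportin, in runs of 1 kb. Tf, the gene of transferrin, started in neither. The 7 placed housekeeping genes, among them Gapdh and Tbp, all started in runs of 1 to 4 kb. Of 7 placed genes of hippocampal neurons, Gad1 and Gad2, the enzymes that make GABA, started in valleys of 7 kb, and the other 5 in short runs. These were 4 kb for Slc17a7, a vesicular glutamate transporter, and Dlg4, a scaffold of excitatory synapses, 3 kb for Egr1, an immediate early gene, and 1 kb for Camk2a and Grin1. The median run around a start was 6 kb for homeobox and HOX genes, 5 kb for the other transcription factors, 3 kb for ligands, 4 kb for neuron genes, 1 kb for iron genes and 2 kb for all placed genes.

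The share of valleys with a start from the lists of transcription factors was larger in the longer classes, as a description with no test. In the valleys of 5 kb, 7 of 86 with a placed start (8.1%) held one, compared with 5 of 42 (11.9%) at 6 kb, 19 of 56 (33.9%) at 7 to 9 kb and 12 of 31 (38.7%) at 10 kb or more. CpG density went the other way, from 45.1 CpGs per kb at 5 kb to 36.8 at 10 kb or more. In all, 215 valleys held a placed start and 205 did not. Of the 258 placed starts in valleys, 41 (15.9%) lay in the first or last tile, which make up 29.7% of valley tiles.

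Of the 10 longest valleys, 3 held the start of a gene of the lists, namely Dlx1, Hoxa2 and Pax2. The longest, 23 kb at chr2:12265001-12288000, held the start of Mir9-2hg. It was at 4.35%, 3.81% and 5.51% in the iron-sufficient pups and at 5.45%, 5.68% and 5.79% in the iron-deficient pups. The groups overlapped, since iron-sufficient replicate 3 lay above iron-deficient replicate 1. The Dlx1 valley, 20 kb at chr3:53836001-53856000, was at 5.32%, 6.77% and 5.41% in the iron-sufficient and at 4.58%, 4.78% and 7.28% in the iron-deficient pups. The groups overlapped, and the lowest and highest values both came from iron-deficient pups.

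The Skor2 valley, 18 kb at chr18:73808001-73826000, was at 4.80%, 4.07% and 7.10% in the iron-sufficient and at 3.58%, 6.68% and 6.87% in the iron-deficient replicates. Its values spread about equally in both diets. The valley with the start of Pax2, a factor of kidney and midbrain development, was 16 kb long at chr1:249792001-249808000. It was at 4.67%, 7.99% and 5.13% in the iron-sufficient and at 3.79%, 3.08% and 4.77% in the iron-deficient replicates, and it overlapped because iron-deficient replicate 3 lay just above iron-sufficient replicate 1. The others among the 10 were those of Ttc6, Hoxa2 and Hmx3, a homeobox factor of the inner ear, each 17 kb, an uncharacterized start on chromosome 14 in 16 kb, and valleys without a placed start at chr12:15565001-15582000 and chr7:141717001-141732000. Their pooled levels ranged from 4.89% to 6.33%, and their diets overlapped. The valley on chromosome 7, 15 kb long, tied in length with the Ebf3 valley at chr1:197040001-197055000, which was not taken among the 10.

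The promoters placed in valleys resembled those placed in short runs in composition. Over the 250 bases before the start, the median GC content was 63.2% for 258 valley promoters, 62.4% for 8993 in short runs and 52.8% for 2544 in neither, compared with 51.2% for all 33469 promoters in the table. The median number of CpGs was 18 in valleys and 18 in short runs, and 5 over the whole table. The GC box GGGCGG, on either strand, was present in 54.3% of valley promoters, 65.2% of short-run promoters and 30.5% of all. TATAAA was present in 9.69%, 4.71% and 12.9%, and CCAAT in 43%, 34.9% and 34%. A valley promoter thus held a GC box less often and TATAAA or CCAAT more often than a short-run promoter, as a count of letters. These differences were not tested.

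The edges of valleys were measured next, as the flanks were not used by the rule beyond the first tile being over 15% or short of reads. Over the 5 tiles on each side, the flanks of valleys were at 37.15%, 37.92% and 38.06% in the iron-sufficient pups and at 37.00%, 39.11% and 39.60% in the iron-deficient pups. The flanks of short runs were at 60.30% to 61.88% in the same samples. Valley flanks were lower in 6 of 6 samples, by a mean of 22.7 percentage points (p = 0.031, two-sided exact permutation test within samples, the smallest this design can give). The same regions were measured in every sample, so this p does not measure the spread between valleys. A difference that all samples share gives the smallest p whatever its size. With 1 tile a side the difference was -15.7, and against short runs of 3 or 4 tiles it was -15.9. Tiles between the valleys of a chain count as flanks, and their part in the difference was not tested.

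Away from the edge, methylation approached the level of the genome more slowly next to valleys than next to short runs. Averaged over the samples it was 34.63% in the first tile outside, 42.87% in the fifth and 55.15% in the tenth, whereas next to short runs it was 50.42%, 62.52% and 63.96%. Inside, the first tile was at 6.34% and the second at 4.6%, and the level then stayed between 4.47% and 4.96%. The edge tile was thus higher than the rest of the valley in every sample, at 5.632% to 7.323% compared with 4.345% to 5.377% in inner tiles.

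**Figure D2:**
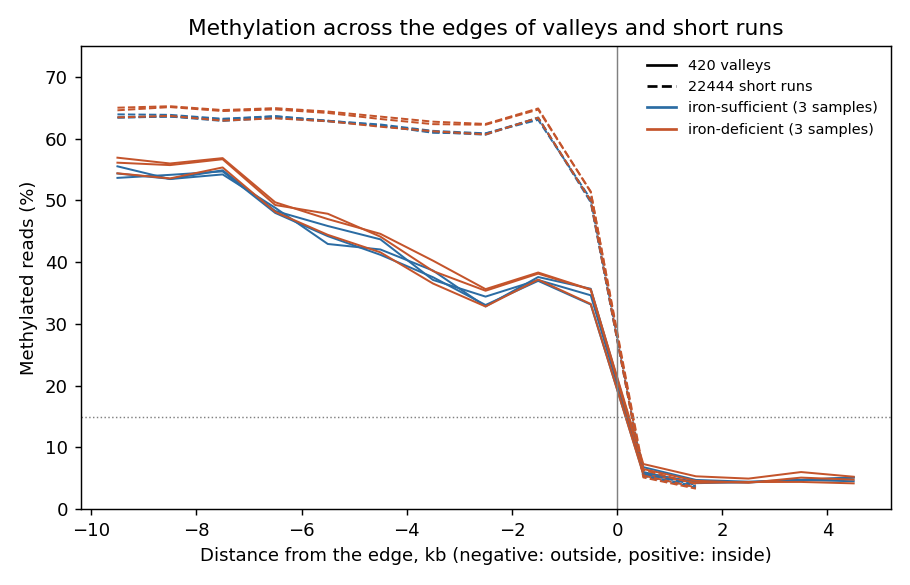
Methylated reads in percent against distance from the edge in kb, with negative distances outside and positive ones inside, for 420 valleys (solid) and 22444 short runs (dashed), 1 line per sample (blue iron-sufficient, red iron-deficient, 3 each). The dotted line is the limit of 15%, and the valley lines lie below the short-run lines throughout the 10 kb outside.

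Within valleys that held a placed start, the tiles with a start had a lower level than the other tiles together. The 247 tiles with a start were at 3.731%, 3.698% and 3.554% in the iron-sufficient and 3.751%, 3.822% and 4.484% in the iron-deficient pups. The other tiles of the same valleys were at 4.797%, 5.565% and 5.030% and at 4.583%, 5.079% and 5.778%. Start tiles were thus lower in 6 of 6 samples, and so they were among inner tiles alone. Placement needs at least 8 CpGs in a promoter, and valleys denser in CpGs had a lower level. The part of CpG density in the difference was not tested.

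The comparison between diets asks whether these stretches gain or lose methylation in iron deficiency. Summed over all 420 valleys, the methylation level was 4.796%, 5.250% and 4.821% in iron-sufficient replicates 1 to 3, against 4.641%, 5.079% and 5.830% in iron-deficient replicates 1 to 3. The groups overlapped, since the lowest and the highest value both belonged to iron-deficient pups. The means were 4.956% ± 0.256 (SD, n = 3) and 5.183% ± 0.601 (SD, n = 3), a difference of 0.227 percentage points (p = 0.7, two-sided exact permutation test). Without iron-deficient replicate 3 the difference was -0.0959. In whole tissue, a change within cells and a change in the mix of cell types cannot be told apart. Among 25 readouts compared in this way, the adjusted p of each was 0.978 or above after Benjamini-Hochberg adjustment of the exact p-values.

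The mitochondrial CpGs of the same samples moved with the valleys. Mitochondrial DNA is generally taken to carry little CpG methylation. It was read as 3.797%, 4.154% and 4.044% methylated in the iron-sufficient and 3.516%, 4.057% and 4.882% in the iron-deficient replicates. Iron-deficient replicate 3 was the highest and iron-deficient replicate 1 the lowest in both measures. The valley level less the mitochondrial level was 0.9987, 1.096 and 0.7764 percentage points in the iron-sufficient and 1.125, 1.021 and 0.9483 in the iron-deficient pups. The means then differed by 0.0745 (p = 0.6, two-sided exact permutation test). The part of bisulfite conversion in these levels was not tested.

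**Figure D3:**
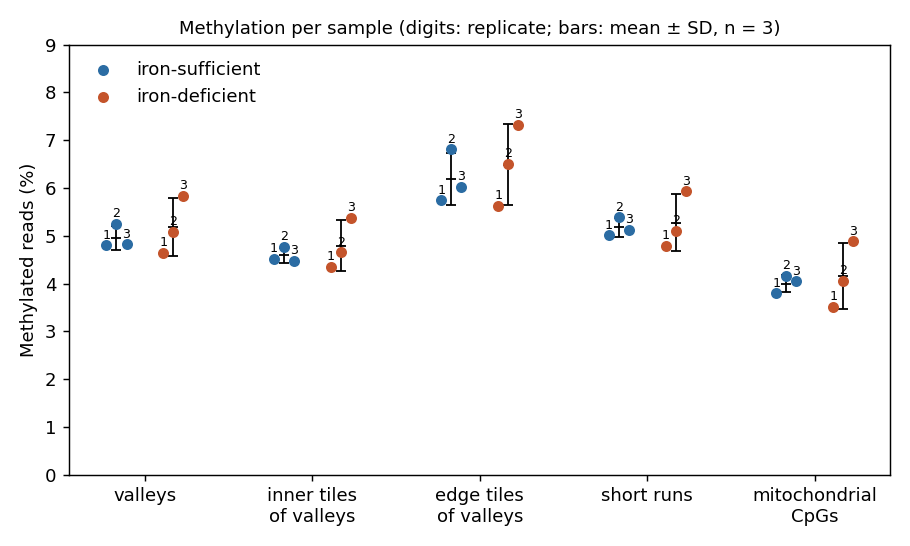
Methylated reads in percent for each sample (digits give the replicate, blue iron-sufficient, red iron-deficient) in valleys, inner and edge tiles of valleys, short runs and mitochondrial CpGs, with the mean ± SD of 3 samples. In each category iron-deficient replicate 3 is the highest and iron-deficient replicate 1 the lowest.

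Differences between diets within parts of the valleys were compared next, and whether these parts differ from each other was not tested. The difference was 0.0827 percentage points in valleys with a named gene start and 0.398 in those without (p = 0.9 and 0.6, two-sided exact permutation tests). The difference between diets was 0.299 percentage points in edge tiles, 0.204 in inner tiles and -0.0326 in the 43 valleys with a start from the lists of transcription factors (p = 0.7, 0.7 and 1, two-sided exact permutation tests). In the tiles with a gene start, given above, all 3 iron-deficient samples lay above all 3 iron-sufficient ones, by 0.359 on average (p = 0.1, the smallest the exact permutation test allows, and 0.978 adjusted). The nearest values, 3.731% and 3.751%, differed by little. The other tiles of the same valleys differed by 0.016 (p = 1, same exact permutation test). Among inner tiles with a start the diets overlapped, at 3.681%, 3.433% and 3.218% in the iron-sufficient and 3.653%, 3.693% and 4.333% in the iron-deficient replicates (p = 0.2, two-sided exact permutation test). After subtraction of the mitochondrial level the diets also overlapped over the sum of the 247 tiles with a start, at -0.06644, -0.4566 and -0.4905 percentage points in the iron-sufficient and 0.2357, -0.235 and -0.3975 in the iron-deficient replicates.

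Other readouts of the valleys did not separate the diets. The flanks differed by 0.861 percentage points (p = 0.4, two-sided exact permutation test), next to 0.848 over all autosomal CpGs (p = 0.3, same test). The flank difference was 0.336 with 1 tile a side, 0.347 without iron-deficient replicate 3 and 1.64 without iron-deficient replicate 1. Valley tiles under 15% in the sample itself made up 93.6%, 87.58% and 89.75% of those measured in the iron-sufficient and 92.8%, 88.89% and 87.98% in the iron-deficient replicates, a difference of -0.418 (p = 0.8, two-sided exact permutation test). The sign of that difference was not stable, at 1.23 without iron-sufficient replicate 1, 0.0818 without iron-deficient replicate 2 and 0.535 without iron-deficient replicate 3. Coverage per CpG in valleys was 1.343 to 1.454 times that over all autosomal CpGs, and the means differed by -0.0154 (p = 0.9, two-sided exact permutation test) and by 0.00735 without iron-deficient replicate 3.

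The valleys did not depend on a single pup for their low level. When valleys were found from 5 samples and measured in the sixth, 407 to 426 valleys were found, the sixth sample was at 4.68% to 5.9%, and 98.07% to 100% of the valleys were under 15% in it. Found from each diet alone, there were 414 valleys in the iron-sufficient and 407 in the iron-deficient group. Of these, 323 (78% of the iron-sufficient set) and 322 (79.1% of the iron-deficient set) overlapped a valley of the other diet by at least 1 tile.

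Each valley had 888 to 47446 CpG reads per sample, with a median of 9403. Neighbouring CpGs share reads, and the sources used here do not say whether PCR duplicates were taken out, so reads are not independent molecules.

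The spread between pups was uneven from valley to valley. The SD over the 6 samples ranged from 0.302 to 5.935 percentage points with a median of 1.604. The Sp9 valley, 8 kb at chr3:55774001-55782000, had the smallest, with 3.71%, 4.10% and 3.34% in the iron-sufficient and 3.71%, 3.81% and 4.16% in the iron-deficient replicates. Valleys of Skor1, a corepressor of neurons, and Id2, an inhibitor of bHLH factors, followed with SDs of 0.308 and 0.384.

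The largest spread was in a 9 kb valley at chr10:85020001-85029000, in the chain near Hoxb1. It was at 7.20%, 19.64% and 5.58% in the iron-sufficient and at 14.04%, 4.38% and 7.04% in the iron-deficient replicates. Iron-sufficient replicate 2 stood apart, with 38.64% in the first tile and 53.21% in the eighth, where the other samples were at most at 13.66% and 18.04%. Next came a valley at chr4:80621001-80626000, 4.5 kb from the start of Evx1, with an SD of 5.509, and one at chr17:51220001-51225000 with an uncharacterized start and an SD of 4.708. In each of these 3 valleys iron-sufficient replicate 2 was the highest, and CpG density was low at 21.2 to 22.6 CpGs per kb.

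Taken singly, the valleys were split in direction between the diets. The mean was higher in iron-deficient pups in 244 valleys and lower in 176, with a median difference of 0.226 percentage points (0.0732 after subtraction of the mitochondrial level) and 90% of the valleys between -2.04 and 2.55. The same count over all windows of 5 kb is not given here. As given above, the diets differed by 0.848 percentage points over all autosomal CpGs. All 3 iron-deficient samples were above all 3 iron-sufficient ones in 25 valleys (5.95%), while 6.74% of 465071 windows of 5 kb over all autosomes did the same. They were all below in 7 valleys (1.67%), compared with 3.68% of the windows. Neither share exceeded that of the genome at large. After subtraction of the mitochondrial level 19 of 420 valleys were higher and 14 lower, next to 28866 and 18549 of 465071 windows. With a sample left out there were 58 (without iron-deficient replicate 2) to 75 (without iron-deficient replicate 1) separated valleys instead of 32, since fewer samples are easier to separate. Without iron-deficient replicate 3 more were lower than higher, 38 and 29. The shares of all windows with a sample left out are not given here, so these counts cannot be set against the genome.

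**Figure D4:**
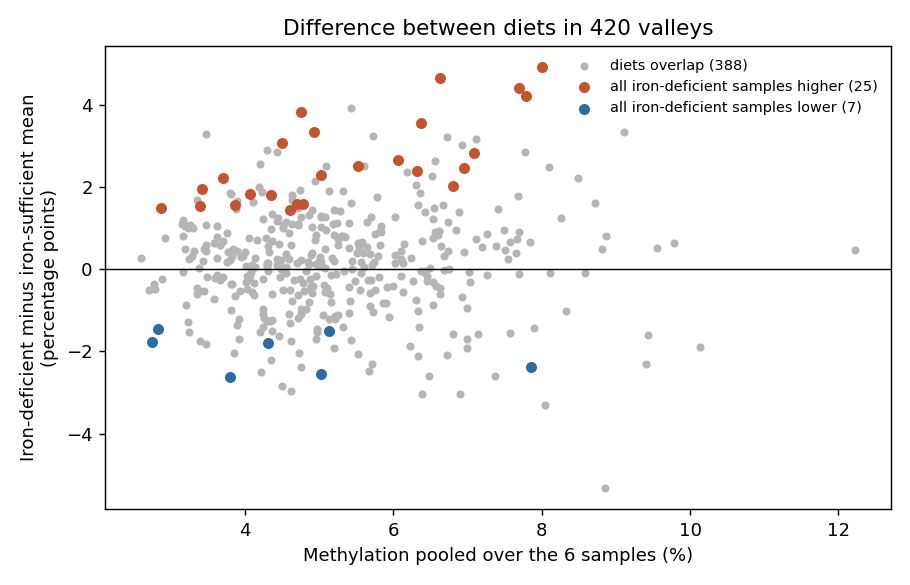
Difference between the mean methylation of iron-deficient and iron-sufficient pups, in percentage points, against the pooled level in percent, for 420 valleys. The 25 valleys with all iron-deficient samples higher (red) and the 7 with all lower (blue) lie among valleys whose diets overlap (grey), and 1 overlapping valley has the largest difference of all, at -5.33.

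Across tiles the edgeR quasi-likelihood test made no call. Of 1121479 tiles with enough reads in every sample, 0 had an adjusted p of at most 0.05, which is 0% of the table, and 0 of 2702 valley tiles were among them. limma also called 0. At an unadjusted p under 0.05 edgeR listed 194 valley tiles (7.18%), 127 higher and 67 lower in iron deficiency, next to 2.9% of all tiles. limma listed 141 valley tiles (5.22%), 94 higher and 47 lower, next to 4.09% of all tiles. Without iron-deficient replicate 3 the direction turned in limma, with 49 valley tiles higher and 78 lower. Together these were 4.7% of valley tiles, next to 4.53% of all tiles. With a trended dispersion edgeR listed 6.29% of valley tiles, next to 2.89% of all tiles. The split by direction over all tiles is not given here, nor is the share among other tiles of low methylation. The counts of valley tiles by direction therefore cannot be set against the genome.

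Among valleys with separated diets, the largest difference upwards was in a 6 kb valley at chr10:13974001-13980000, which held the starts of Ndufb10 and Rps2, a ribosomal protein gene. It was at 6.30%, 3.78% and 5.11% in the iron-sufficient and at 13.85%, 8.79% and 7.32% in the iron-deficient pups. The valley differed by 4.92 percentage points. The largest difference among its tiles was in the second, which had 74 CpGs and was at 4.91%, 1.07% and 2.68% compared with 22.87%, 16.17% and 2.39%. In that tile iron-deficient replicate 3 lay within the range of the iron-sufficient pups. The tile differences ranged from -3.98 in the fifth to 10.92 in the second, and the third was also negative, at -3.57.

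A 5 kb valley at chr3:91124001-91129000 was at 4.49%, 4.86% and 3.63% in the iron-sufficient and at 7.05%, 9.99% and 9.88% in the iron-deficient pups. The difference of 4.65 percentage points had the same sign in all 5 tiles, from 1.09 to 7.64. The valley was chosen by its difference, so the shared sign is a description. Only in the third tile did the diets not overlap. In the fourth, iron-deficient replicate 1 was at 0.93%, below iron-sufficient replicates 1 (3.69%) and 3 (1.45%). The other valleys of the 5 largest were at chr5:23738001-23743000, chr9:18074001-18082000 and chr18:14714001-14720000, with differences of 4.42, 4.22 and 3.83. None of these 4 held a placed start, and the nearest placed start of a named gene lay 231.1 to 1368.3 kb away. Genes that were not placed may lie nearer.

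Among the 7 valleys lower in iron deficiency, the largest difference was -2.63, in a 6 kb valley without a placed start at chr7:122875001-122881000. The Prdm13 valley, 8 kb at chr5:36427001-36435000, was at 5.32%, 6.89% and 6.41% in the iron-sufficient and at 3.44%, 4.84% and 2.69% in the iron-deficient replicates. It differed by -2.55, and its tiles ranged from -10.82 in the fifth to 12.65 in the last, which had 13 CpGs. A 6 kb valley at chr8:103809001-103815000 differed by -2.37, that of Jarid2, an accessory protein of Polycomb repressive complex PRC2, by -1.79, and that of Nipbl, the loader of cohesin, by -1.77.

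**Figure D5:**
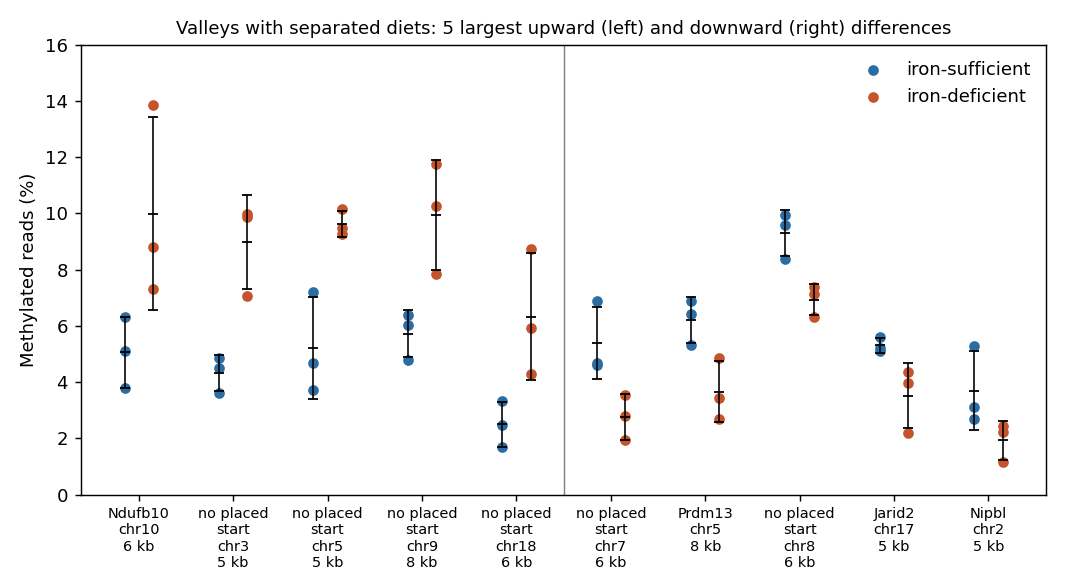
Methylated reads in percent in each sample (blue iron-sufficient, red iron-deficient) with the mean ± SD of 3 samples, for the 5 valleys with the largest upward and the 5 with the largest downward difference among those whose diets do not overlap. In the Ndufb10 valley iron-deficient pups range from 7.32% to 13.85%, and the highest iron-sufficient pup is at 6.30%.

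Other separated valleys with a placed start of a named gene, listed after their values were seen, were those of Ccdc6, Kif26b, Mex3b, an RNA-binding protein, Fgf9, a growth factor, Hic1, a transcriptional repressor, Vax2, a homeobox factor of the ventral retina, Tbx18, and Trim8, with differences from 3.33 down to 1.5 percentage points. In the other direction were Vgll2, a cofactor of TEAD proteins, and Sema6a, an axon guidance signal, at -1.51 and -1.45. The Fgf9 valley was at 2.36%, 2.09% and 2.57% in the iron-sufficient and at 2.83%, 6.83% and 4.00% in the iron-deficient replicates, with iron-deficient replicate 2 well above the rest. The largest difference of any valley, -5.33 at chr9:17941001-17947000, was not a separated one. There the iron-sufficient replicates were at 10.59%, 8.11% and 17.45% and the iron-deficient replicates at 5.14%, 8.91% and 6.10%.

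Valleys over some genes with known roles in the forebrain, named after their values were seen, had diets that overlapped. The Gad1 valley was at 8.38%, 6.32% and 3.19% in the iron-sufficient and at 4.13%, 5.65% and 8.42% in the iron-deficient replicates, with nearly the same range in both diets. The Gad2 valley was at 4.39%, 2.71% and 2.99% and at 3.81%, 5.90% and 6.03%, and overlapped through the lowest iron-deficient pup. The valley of Emx1, a homeobox factor of the dorsal forebrain, was at 4.22%, 4.63% and 3.52% and at 7.25%, 4.14% and 5.27%. That of Lhx2, a factor needed to form the hippocampus, was at 5.94%, 4.40% and 3.70% and at 3.62%, 3.68% and 6.99%. Both overlapped.

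The Sox2 valley was at 2.88%, 7.45% and 4.39% in the iron-sufficient and at 3.12%, 3.88% and 4.82% in the iron-deficient pups. The Eomes valley, over a factor of intermediate progenitors, was at 3.38%, 2.73% and 8.68% and at 3.93%, 4.23% and 5.63%. The Olig2 valley, over a factor of oligodendrocytes, was at 4.25%, 3.28% and 4.00% and at 4.06%, 4.47% and 7.04%. In each the diets overlapped and a single pup was the highest by more than 2 percentage points.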

How the data were processed

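Per the labels and the study's methods, the authors mapped adapter-trimmed reads on rn4 by BS Seeker v1, kept read 1 at overlaps within a pair and combined both strands of a CpG. The deposited values are, for each CpG of a sample, its methylated fraction and its read count (coverage), neither normalized nor pooled. Positions are printed as listed, and whether they start from 0 or 1 is not stated.

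Fraction times coverage gave whole methylated counts at every CpG. Samples listed 16699344 to 21093430 CpGs, with a median coverage of 17 to 33 reads. Counting error alone understates the spread between samples. A valley level is the sum of methylated counts over the sum of coverage. Groups follow the sample titles. Differences between diets were tested by exact permutation (two-sided), and tiles with at least 5 CpGs and a coverage of at least 50 in every sample by edgeR 4.0.16 (glmQLFit, glmQLFTest, sample effects, common dispersion, R 4.3.3), with Benjamini-Hochberg adjustment and limma 3.58.1 as the alternative. The code (scipy 1.17.1, numpy 2.4.6 and pandas 2.3.3 under Python 3.11.15) was tested on simulated data.

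Promoters of RefSeq (GRCr8) were placed by CpG spacing with a seed of 5 distances. Valleys named in the text are the 10 longest, the 5 largest differences in each direction among those with separated diets, the 3 with the lowest and the 3 with the highest SD, the 3 tiles on either side of the limit, and genes of the lists. A few others (the lowest pooled level, the largest difference of any valley, and the remaining separated valleys with a named start) were named after their values were seen. The same holds for the choice, from the lists, of the valleys over genes with known roles in the forebrain. The valleys, lists and rules were chosen with earlier results of these data known. Chromosomes X and Y were not analysed here. Alternatives varied the limit, length, reads, grid, weighting, coverage, tools, replicate block and each replicate left out.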

Additional observations from a re-analysis of the deposited data

How the results depend on the processing

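The number of valleys was 228 with a limit of 10%, 2469 with at least 3 tiles and 42 with at least 10 tiles, and within 1.5 times 420 under the other alternatives, with 407 to 426 when a replicate was left out. The difference between diets in valleys ranged from -0.0959 to 0.499 percentage points with a replicate left out, the former without iron-deficient replicate 3, and kept its sign elsewhere. Valleys with separated diets numbered 58 to 75 with a replicate left out, 29 to 62 higher and 13 to 38 lower in iron deficiency, and the count lower in iron deficiency was 14 after subtraction of the mitochondrial level, an alternative chosen after the data were seen. Shares of all windows with a replicate left out are not given here. The difference in valley tiles under 15% ranged from -1.87 to 1.23 with a replicate left out (0.0818 and 0.535 without iron-deficient replicates 2 and 3), and that in relative coverage from -0.0482 to 0.00735. The difference was 0.0953 for valleys of at least 10 tiles, 0.527 for flanks as a mean over valleys, -2.86 for tiles under 5% and -0.0395 for coverage relative to the median. The flanks of valleys stayed -22.8 to -22.6 percentage points from those of short runs with a replicate left out, where 5 samples allow no exact p below 0.0625. edgeR called 0 valley tiles under each alternative it was run with, and limma, which alone was run with a replicate left out, also called 0. The difference between diets in flanks ranged from 0.347 to 1.64 with a replicate left out. Deviations of same-numbered samples of the 2 diets correlated at 0.063, 0.079 and 0.03 over valleys. For samples of different number the correlations ranged from -0.084 to 0.035. Whether replicate numbers pair the samples cannot be told from such small correlations. With the replicate block the difference was 0.227 in valleys (exact p = 1), 0.861 in flanks (exact p = 0.5), -0.418 in tiles under 15% (exact p = 0.75) and -0.0154 in relative coverage (exact p = 1). With the block edgeR called 0 valley tiles. At an unadjusted p under 0.05 it listed 240 valley tiles (8.88%) instead of 194 (7.18%), next to 2.65% instead of 2.9% of all tiles. The block changed no other call.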
